A study of Mus musculus with 3 samples.

Results

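The genes described here are 40 genes of cholesterol and fatty acid metabolism, taken by symbol from the 37224 Ensembl genes counted in each library. They comprise 17 enzymes of cholesterol synthesis, 5 genes of sterol sensing, 8 liver X receptor (LXR), sterol efflux and lipoprotein genes, 5 enzymes of fatty acid synthesis and desaturation, and 5 genes of lysosomal sterol release, esterification and oxysterol formation. The members were named without reference to a measured value in the rule itself, and all 40 matched an identifier. The libraries came from the intestinal epithelium of RAG-2 null mice, which form no mature T or B cells by receptor rearrangement. The iCD8a library was made from cells sorted for CD45, the pan-leukocyte marker, together with CD8α. The ILC1 library, of group 1 innate lymphoid cells, came from a sort on NKp46 and NK1.1. The CD11b+ library held CD45-positive myeloid cells that carried CD11b and no CD8α. All libraries share the genotype, and the labels give neither the age of the mice nor whether animals were pooled. Each population is represented by 1 library, so differences have no replicate check and no p-value could be computed.

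Cells make cholesterol from acetyl-CoA through mevalonate, isoprenoids and squalene. The transcription factors encoded by Srebf1 and Srebf2 (SREBPs) raise transcription of these enzymes and of fatty acid synthesis when membrane sterol is low, after SCAP, which the INSIG proteins hold back, has carried them out of the endoplasmic reticulum. LXRs respond to oxysterols and turn on exporters such as ABCA1 and ABCG1, and macrophages depend on this export because they take up sterol from engulfed cells. Activated lymphocytes draw on sterol synthesis for membrane growth.

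Because the synthesis enzymes differed together between libraries, their promoters were read from RefSeq's table (GRCm38.p6), which holds 300 bases per start site, 250 before it and 50 after. It had entries for 32 of the 40 members. Of the 14 synthesis enzymes with an entry, 14 carried CCAAT, the core of the NF-Y site, on either strand, against 41.1% of all 27025 genes in the table. Among genes with a single promoter entry, 12 of 12 enzymes carried it, against 38.2%. CCAAT was not particular to the enzymes, since 25 of the 32 members carried it (78.1%). Outside the enzymes it was found for 4 of 5 sterol sensing genes and 3 of 4 lysosomal and storage genes. It was also found for 2 of 3 fatty acid enzymes and 2 of 6 LXR and lipoprotein genes. The sterol regulatory element TCACNCCAC was found on either strand for Hmgcs1 alone among the 32 members, and for 1.44% of all genes. The LXR direct repeat, AGGTCA and AGGTCA with 4 bases of any kind between, was found for 0 of 32 members and 0.0148% of all genes. CCAAT and TCACNCCAC do not overlap in the promoters shown. The promoter of Hmgcs1, the enzyme with the most counts in iCD8a and ILC1, is shown with those of Msmo1, which followed the common pattern, and Lss, which departed from it in CD11b+. Capitals mark CCAAT, written ATTGG where it lies on the opposite strand, and in Hmgcs1 also TCACCCCAC, whose first base lies 137 bases before the start. A match in letters is a description and not evidence of binding. Strings as rare over all genes as TCACNCCAC and the LXR repeat would give few matches among 32 members in any case. The lack of an exact match is therefore not evidence that a gene lacks such a site.
Hmgcs1, chr13:119690101-119690400, plus strand: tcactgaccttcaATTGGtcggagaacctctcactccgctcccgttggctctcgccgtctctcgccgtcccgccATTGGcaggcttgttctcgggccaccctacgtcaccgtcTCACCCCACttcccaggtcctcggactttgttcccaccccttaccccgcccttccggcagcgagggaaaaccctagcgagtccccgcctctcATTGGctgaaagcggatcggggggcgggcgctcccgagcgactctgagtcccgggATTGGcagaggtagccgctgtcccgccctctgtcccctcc
Msmo1, chr8:64733529-64733828, minus strand: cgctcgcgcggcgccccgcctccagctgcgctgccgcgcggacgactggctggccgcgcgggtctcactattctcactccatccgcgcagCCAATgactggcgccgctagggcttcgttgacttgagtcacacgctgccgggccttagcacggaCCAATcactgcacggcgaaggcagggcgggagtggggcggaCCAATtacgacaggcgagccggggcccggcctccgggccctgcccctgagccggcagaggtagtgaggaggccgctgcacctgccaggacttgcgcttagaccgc
Lss, chr10:76531355-76531654, plus strand: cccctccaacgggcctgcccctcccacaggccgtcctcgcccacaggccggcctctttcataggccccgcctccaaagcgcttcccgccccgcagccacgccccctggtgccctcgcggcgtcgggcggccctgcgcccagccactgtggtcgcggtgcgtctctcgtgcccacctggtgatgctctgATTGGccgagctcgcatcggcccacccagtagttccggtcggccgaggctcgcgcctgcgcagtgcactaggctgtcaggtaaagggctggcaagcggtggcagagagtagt

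Reads counted on genes numbered 21678113 in iCD8a, with 22181660 in ILC1 and 30511296 in CD11b+, of which the 40 members took 0.622% in iCD8a, 0.375% in ILC1 and 0.623% in CD11b+. Levels are given as CPM, counts brought to a common library size after TMM normalisation, and brackets after a fold hold its 95% exact binomial interval, which covers counting error alone. Cd8a, Ncr1, Klrb1c (the gene of NK1.1) and Itgam were each highest in the library gated on them, and each had counts in the other libraries. Klrb1c stood at 207, 546 and 14.7 CPM in iCD8a, ILC1 and CD11b+, so it was only 2.63-fold (2.55 to 2.72) lower in iCD8a than in ILC1. Cd8a stood at 2636, 4.41 and 28.3 CPM in iCD8a, ILC1 and CD11b+, Ncr1 at 1.44, 396 and 2.23 CPM in iCD8a, ILC1 and CD11b+, and Itgam at 362, 187 and 845 CPM across iCD8a, ILC1 and CD11b+. Rag2 had 0 counts in all 3. A floor of 3 counts equals at most 0.136 CPM, and the upper 95% exact Poisson bound is at most 0.168 CPM. In sorted bulk RNA, fewer cells of a type and less RNA per cell cannot be told apart.

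A gene entered a comparison when it reached 5 CPM in the higher library, and was called at 2-fold when its fold was at least 2 with the near bound at least 1.5, or at 4-fold when its fold was at least 4 with the near bound at least 2. Of the 40 members, 39 reached 5 CPM in at least 1 library and 35 in every library. Between iCD8a and ILC1, 13 of 37 compared members were higher in iCD8a at 2-fold, against 9.49% of 10110 genes, and 3 were lower, against 10.8%. At 4-fold, Dhcr7 was higher, against 3.52% of genes, and Abca1 and Apoe were lower, against 4.89%. The median log2 ratio of the 37 was 0.69, and that of all genes 0.06. With upper-quartile scaling these numbers became 9 higher and 4 lower at 2-fold, and 0 higher and 2 lower at 4-fold.

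Between iCD8a and CD11b+, 3 of 39 members were higher in iCD8a at 2-fold, against 16.7% of 10821 genes, and 8 were lower, against 20.6%. At 4-fold, 1 was higher (6.13% of genes) and 7 lower (13.4% of genes), and the median log2 ratio was 0.17, with 0.08 over all genes. Unscaled CPM gave 5 higher and 8 lower at 2-fold. Between ILC1 and CD11b+, 2 of 39 were higher in ILC1 at 2-fold (17% of 10734 genes) and 13 lower (20.9%), and at 4-fold 0 were higher (6.01%) and 8 lower (13.0%). The median log2 ratio there was −0.63 against 0.03 over all genes. The median ratios placed the members lower in ILC1 than in either other library, while the 4-fold differences lay mostly on the side of CD11b+. Without TMM scaling the median log2 ratio of all genes shifts by 0.14 between iCD8a and ILC1, by 0.25 between iCD8a and CD11b+, and by 0.11 between ILC1 and CD11b+.

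**Figure D1:**
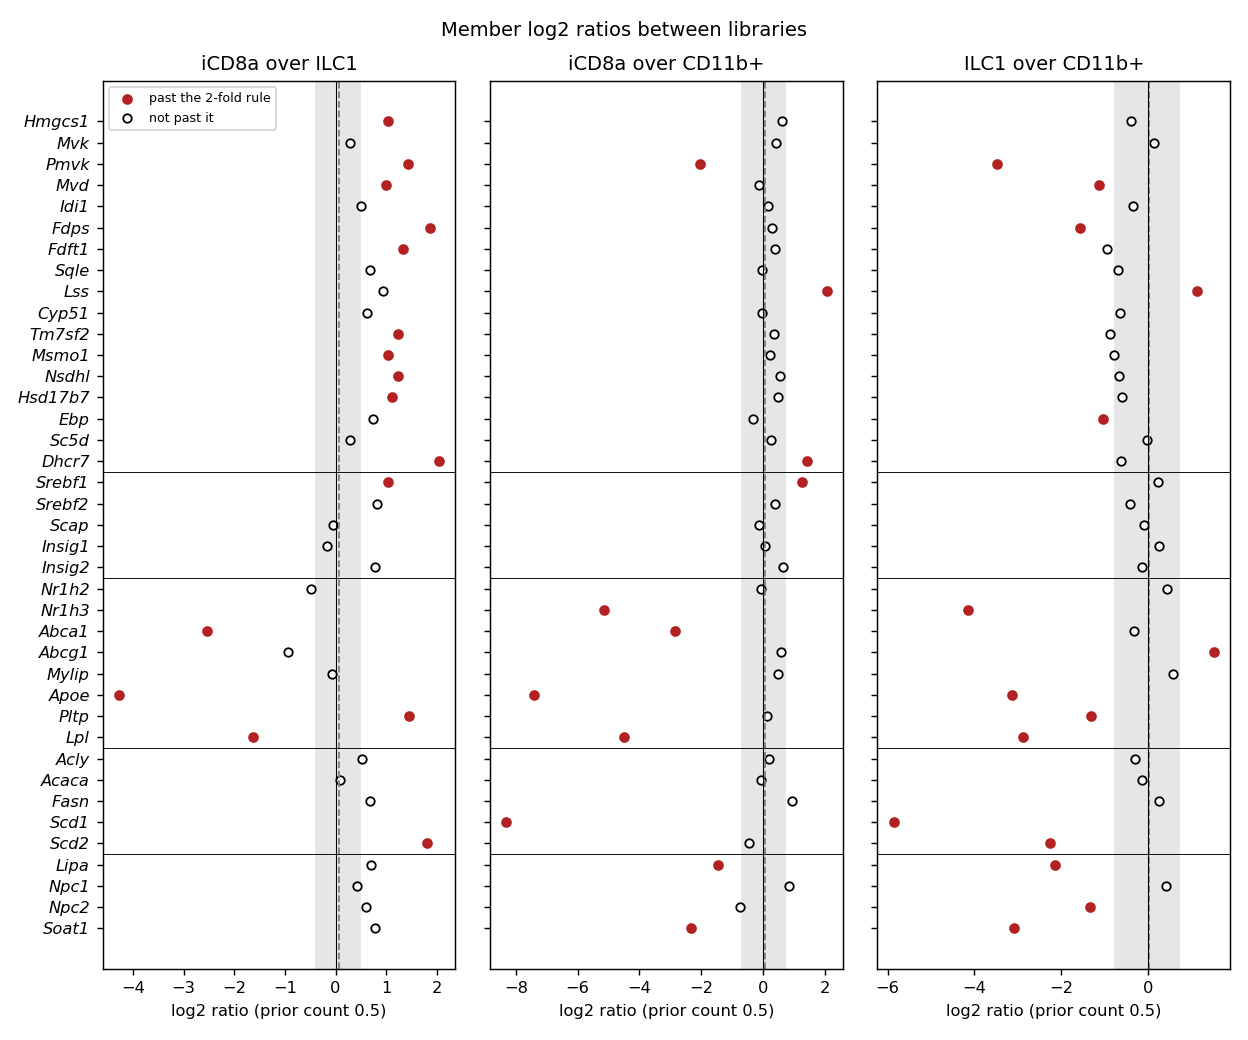
Log2 ratios of 39 members (Ch25h, under 5 CPM in each library, is left out) for the 3 pairs of libraries, with a prior count of 0.5 (horizontal axis); rows are genes by role group, filled points passed the 2-fold rule, the grey band spans the quartiles of all compared genes and the dashed line is their median. The 17 synthesis enzymes at the top all lie right of 0 for iCD8a over ILC1, while Apoe, Lpl, Nr1h3 and Scd1 lie far to the left for iCD8a over CD11b+.

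Cholesterol synthesis transcripts were more abundant in iCD8a than in ILC1 at every step measured. All 17 enzymes had a fold above 1 under each of the 4 scalings run, and their median log2 ratio with TMM was 1.03. With TMM, 10 were higher at 2-fold, against 9.49% of all genes, and 0 were lower. The number higher was 11 with unscaled CPM, 9 with DESeq2 factors, where Mvd no longer passed, and 7 with upper-quartile scaling, where Hmgcs1, Mvd and Msmo1 did not. Summed over the 17, the level was 2162 CPM in iCD8a, with 1148 in ILC1 and 1796 in CD11b+, a ratio of iCD8a over ILC1 of 1.88 (1.86 to 1.91). Per kilobase of merged exon, Hmgcs1 (108, 53.1 and 69.9 CPM per kb in iCD8a, ILC1 and CD11b+) and Cyp51 (72.2, 46.7 and 73.1) were the most abundant of the 17 in iCD8a and ILC1, and Pmvk (21.6, 7.96 and 88.9 in the same libraries) in CD11b+.

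Dhcr7 (ENSMUSG00000058454), which reduces a ring double bond at the end of the route to cholesterol, stood at 123 CPM in iCD8a, with 29.5 in ILC1 and 45.5 in CD11b+. Its fold of iCD8a over ILC1, 4.15 (3.81 to 4.53), was the largest of the 17, and with upper-quartile scaling it no longer passed the 4-fold rule. Fdps, which makes the farnesyl diphosphate used for sterols and for protein prenylation, stood at 112 CPM in iCD8a, with 30.9 in ILC1 and 91.2 in CD11b+, 3.63-fold (3.34 to 3.96) higher in iCD8a than in ILC1. Both enzymes were lowest in ILC1, but Fdps was near level between iCD8a and CD11b+ (1.23-fold, 1.17 to 1.3), whereas Dhcr7 was 2.69-fold (2.52 to 2.87) higher in iCD8a.

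The early enzymes were also higher in iCD8a than in ILC1. Hmgcs1, which condenses acetyl units on the way to mevalonate, was at 498 CPM in iCD8a, with 244 in ILC1 and 321 in CD11b+, 2.04-fold (1.98 to 2.11) higher in iCD8a than in ILC1. Mvd, the mevalonate diphosphate decarboxylase, was at 56.1, 27.9 and 61.3 CPM in iCD8a, ILC1 and CD11b+, 2.01-fold (1.82 to 2.22) higher, and Idi1, which isomerises the isoprenoid unit, at 204, 143 and 182 CPM across iCD8a, ILC1 and CD11b+, 1.42-fold (1.36 to 1.49). Mvk, the mevalonate kinase, differed least of the early steps, at 38.6 CPM in iCD8a, with 31.5 in ILC1 and 28.5 in CD11b+ (1.23-fold over ILC1, 1.11 to 1.35). Its levels in ILC1 and CD11b+ were not separable by counting error (1.1-fold, 0.996 to 1.22).

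Past farnesyl diphosphate, Fdft1, the squalene synthase, was at 75.5 CPM in iCD8a, with 29.9 in ILC1 and 57.3 in CD11b+, 2.53-fold (2.31 to 2.77) higher in iCD8a than in ILC1. Of its exon bases 18.3% overlap Ctsb on the opposite strand, an abundant gene with 11835, 4901 and 34246 counts in iCD8a, ILC1 and CD11b+, so its level is uncertain where the counting did not use strand. Sqle, the squalene epoxidase, was at 123, 76.7 and 125 CPM in iCD8a, ILC1 and CD11b+, and Cyp51, the lanosterol demethylase, at 319, 206 and 323 CPM across iCD8a, ILC1 and CD11b+. Relative to ILC1, iCD8a was higher by 1.61-fold (1.51 to 1.71) for Sqle and 1.55-fold (1.49 to 1.6) for Cyp51, and neither was separable by counting error between iCD8a and CD11b+.

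The later enzymes that trim and reduce the sterol ring were likewise higher in iCD8a than in ILC1. Msmo1, the methylsterol oxidase, was at 209.6 CPM in iCD8a, with 102 in ILC1 and 177 in CD11b+, and Nsdhl, the dehydrogenase that acts with it, at 55.7, 23.8 and 38.0 CPM in iCD8a, ILC1 and CD11b+. Hsd17b7 completes that demethylation and was at 46.3, 21.5 and 32.8 CPM across iCD8a, ILC1 and CD11b+, and Tm7sf2, a sterol reductase with 12.1% of its exon bases shared with Vps51, was at 14.5, 6.13 and 11.2 CPM in iCD8a, ILC1 and CD11b+. Relative to ILC1, iCD8a was higher by 2.05-fold (1.95 to 2.16) for Msmo1, 2.34-fold (2.11 to 2.59) for Nsdhl, 2.16-fold (1.93 to 2.41) for Hsd17b7 and 2.36-fold (1.93 to 2.9) for Tm7sf2. Ebp, the sterol isomerase (35.5, 21.4 and 44.2 CPM across iCD8a, ILC1 and CD11b+), and Sc5d, the sterol desaturase (92.3, 75.9 and 77.2 CPM in iCD8a, ILC1 and CD11b+), missed the 2-fold rule, at 1.66-fold (1.48 to 1.87) and 1.21-fold (1.14 to 1.3).

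**Figure D2:**
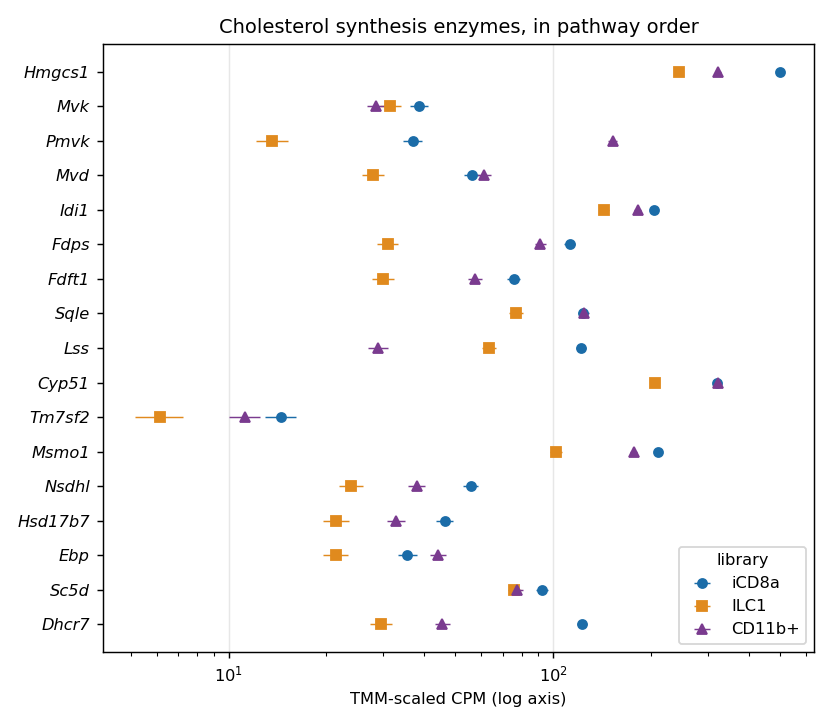
Level of the 17 cholesterol synthesis enzymes in each library (TMM-scaled CPM, log axis), in pathway order from top to bottom; points are the single libraries and bars are 95% exact Poisson intervals of counting error. iCD8a lies right of ILC1 in every row, and the CD11b+ point stands far right for Pmvk (152 CPM) and far left for Lss (28.9 CPM).

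Against CD11b+ the synthesis route was within 2-fold in iCD8a apart from Lss and Dhcr7, which were higher, and Pmvk, which was lower. These were 2 of 17 higher and 1 of 17 lower, against 16.7% and 20.6% of all genes. The median log2 ratio of the 17 was 0.30, 12 had a fold above 1 (15 with unscaled CPM), and the summed ratio was 1.2 (1.19 to 1.22). Lss, which closes squalene epoxide into lanosterol, was at 122 CPM in iCD8a, with 63.4 in ILC1 and 28.9 in CD11b+, 4.22-fold (3.9 to 4.56) higher in iCD8a than in CD11b+ and 2.2-fold (2.02 to 2.4) higher in ILC1 than in CD11b+. Lss was lowest in CD11b+, while 14 of the 17 were lowest in ILC1 and Mvk and Sc5d were not separable between ILC1 and CD11b+ by counting error (Sc5d 1.02-fold lower in ILC1, 0.954 to 1.08). Pmvk, the phosphomevalonate kinase, was at 36.9 CPM in iCD8a, with 13.6 in ILC1 and 152 in CD11b+. It was 2.71-fold (2.37 to 3.1) higher in iCD8a than in ILC1, but 4.12-fold (3.83 to 4.44) lower in iCD8a and 11.2-fold (9.94 to 12.6) lower in ILC1 than in CD11b+, the one enzyme of the 17 past the 4-fold rule on that side. With unscaled CPM, Pmvk in iCD8a no longer passed it. ILC1 was lower than CD11b+ for 15 of 17 enzymes (14 with unscaled CPM and with upper-quartile scaling), and the summed ratio was 0.639 (0.63 to 0.649). At 2-fold 4 of the 17 were lower, a share near the 20.9% of all genes.

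Other measures also differed between these libraries. The 12 cell cycle genes summed to 423 CPM in iCD8a, with 344 in ILC1 and 439 in CD11b+. Their median log2 ratio between iCD8a and ILC1 was 0.64, with 0.06 over all genes. At 2-fold, 2 of 11 compared genes were higher in iCD8a and 0 lower, against 9.49% and 10.8% of all genes. The 6 plasmacytoid dendritic cell markers summed to 1116, 1272 and 389 CPM across iCD8a, ILC1 and CD11b+ with none at 0. Of these, Irf8 alone gave 1183 CPM in ILC1 and was lower in iCD8a at 2-fold, while the other 5 (Siglech, Bst2, Tcf4, Spib and Ly6d) were higher in iCD8a than in ILC1 at 2-fold. Siglech was at 224, 0.954 and 12.9 CPM in iCD8a, ILC1 and CD11b+. The 16 intestinal epithelial markers summed to 797, 436 and 1187 CPM across iCD8a, ILC1 and CD11b+, none at 0. Of 11 compared, 2, Epcam and Cdh17, were higher in iCD8a than in ILC1 at 4-fold, against 3.52% of all genes. The part of these in the difference of the synthesis enzymes was not tested.

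Among the regulators, both SREBP genes were most abundant in iCD8a, while Scap and Insig1 were near level. Srebf1 (ENSMUSG00000020538) was at 267 CPM in iCD8a, with 129.9 in ILC1 and 111 in CD11b+, 2.06-fold (1.97 to 2.15) higher in iCD8a than in ILC1 and 2.42-fold (2.32 to 2.52) higher than in CD11b+. Srebf2 was at 829, 469.6 and 625 CPM in iCD8a, ILC1 and CD11b+, higher in iCD8a by 1.77-fold (1.72 to 1.81) relative to ILC1 and 1.33-fold (1.3 to 1.35) relative to CD11b+, short of the 2-fold rule. Srebf1 passed that rule against both, though not against ILC1 with upper-quartile scaling.

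Scap, the escort of the SREBPs, was at 67.2 CPM in iCD8a, with 69.2 in ILC1 and 73.6 in CD11b+, and its iCD8a and ILC1 levels were not separable by counting error (1.03-fold lower, 0.959 to 1.11). Insig1, which retains that escort and is itself an SREBP target, was at 322, 364 and 305 CPM across iCD8a, ILC1 and CD11b+ and so did not share the order of the enzymes, being 1.13-fold (1.1 to 1.17) lower in iCD8a than in ILC1. Insig2, the second retention protein, was at 18.1, 10.5 and 11.5 CPM in iCD8a, ILC1 and CD11b+, 1.73-fold (1.47 to 2.04) higher in iCD8a than in ILC1.

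The LXR and lipoprotein genes were divided. LXRα, encoded by Nr1h3 (ENSMUSG00000002108), had 9 counts in iCD8a and 17 in ILC1 against 395 in CD11b+, or 0.381, 0.772 and 14.0 CPM across iCD8a, ILC1 and CD11b+. It was 36.8-fold (19.2 to 81) lower in iCD8a and 18.1-fold (11.2 to 31.4) lower in ILC1 than in CD11b+, while iCD8a and ILC1 were not separable from each other. LXRβ, encoded by Nr1h2, was present throughout, at 148 CPM in iCD8a, with 206 in ILC1 and 152 in CD11b+. Of the 8 genes, 4 were lower in iCD8a than in CD11b+ at 4-fold (Nr1h3, Abca1, Apoe and Lpl), against 13.4% of all genes, and 0 were higher at 2-fold, against 16.7%.

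The 2 exporters differed in their order. Abca1, which loads sterol onto apolipoproteins, was at 1.73 CPM in iCD8a (41 counts), with 10.2 in ILC1 and 12.7 in CD11b+. It was 5.87-fold (4.19 to 8.4) lower in iCD8a than in ILC1 and 7.33-fold (5.3 to 10.4) lower than in CD11b+, the lowest of the 3 by a wide margin. Abcg1, which exports sterol to larger lipoprotein particles, was at 45.3, 86.8 and 30.1 CPM in iCD8a, ILC1 and CD11b+, so ILC1 was highest, 2.89-fold (2.66 to 3.13) above CD11b+, and iCD8a was 1.92-fold (1.78 to 2.07) below ILC1. Mylip, a ubiquitin ligase for lipoprotein receptors and an LXR target, was at 28.6, 30.2 and 20.2 CPM across iCD8a, ILC1 and CD11b+. Its iCD8a and ILC1 levels were not separable by counting error (1.05-fold lower in iCD8a, 0.945 to 1.17). Relative to CD11b+ it was higher by 1.42-fold (1.27 to 1.59) in iCD8a and 1.5-fold (1.34 to 1.68) in ILC1, short of the 2-fold rule.

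Apoe (ENSMUSG00000002985), the apolipoprotein secreted by macrophages, was the member with the widest spread among those with at least 10 counts in every library. It was at 8.0 CPM in iCD8a, with 157 in ILC1 and 1383 in CD11b+, 19.6-fold (16.9 to 22.8) lower in iCD8a than in ILC1, 173-fold (149.9 to 201) lower than in CD11b+, and 8.82-fold (8.52 to 9.14) lower in ILC1 than in CD11b+. Lpl, the lipase that frees fatty acids from lipoproteins, was at 3.6, 11.2 and 82.6 CPM in iCD8a, ILC1 and CD11b+, 23-fold (18.5 to 28.8) lower in iCD8a and 7.39-fold (6.47 to 8.46) lower in ILC1 than in CD11b+. Pltp, the phospholipid transfer protein, went with the synthesis enzymes instead, at 180.4 CPM in iCD8a, with 65.8 in ILC1 and 164 in CD11b+, 2.74-fold (2.58 to 2.91) higher in iCD8a than in ILC1. Of its exon bases 19.3% overlap Ctsa on the opposite strand, which had 9252, 5434 and 18038 counts in iCD8a, ILC1 and CD11b+.

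Most macrophage markers had a like order. Of 10 compared, 8 were lower in iCD8a than in ILC1 at 4-fold, against 4.89% of all genes. Cd68 (2.53-fold) and Itgam (1.94-fold) were higher in iCD8a. The 12 on the list summed to 394 CPM in iCD8a, with 573 in ILC1 and 8756 in CD11b+, none at 0 counts, and their median stood at 0.32% of the CD11b+ level in iCD8a and 5.3% in ILC1. The complement genes C1qa, C1qb and C1qc stood in ILC1 at 9.55%, 10.9% and 10.6% of their CD11b+ level, beside 11.3% for Apoe, and in iCD8a at 0.252%, 0.298% and 0.342%, beside 0.578%. The part of macrophage RNA in the ILC1 level of Apoe was not tested.

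**Figure D3:**
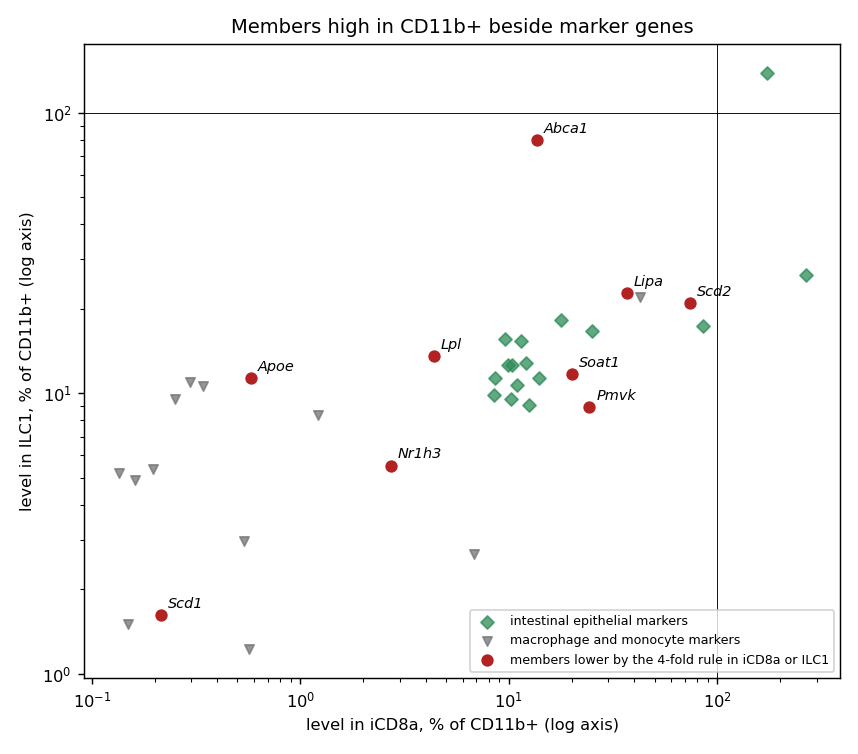
Level in iCD8a (horizontal) and ILC1 (vertical) as a percentage of the level in CD11b+, both log axes, for the 9 members lower than CD11b+ by the 4-fold rule in iCD8a or ILC1 (red), 12 macrophage and monocyte markers (grey) and 16 intestinal epithelial markers (green). Apoe (0.578% and 11.3%) lies beside a set of macrophage markers, Soat1 (20% and 11.7%) and Pmvk (24.3% and 8.95%) lie near the epithelial ones, and Abca1 (13.6% and 80.0%) stands apart.

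The fatty acid synthesis enzymes differed less than the desaturases. Acly, which supplies cytosolic acetyl-CoA, was at 420.2 CPM in iCD8a, with 293 in ILC1 and 364 in CD11b+. Acaca, the carboxylase that commits acetyl-CoA to fatty acids, was level, at 65.0, 61.1 and 67.2 CPM across iCD8a, ILC1 and CD11b+, and iCD8a was not separable by counting error from ILC1 (1.06-fold, 0.988 to 1.15) or from CD11b+. Fasn, the fatty acid synthase, was highest in iCD8a, at 414 CPM, with 258 in ILC1 and 216 in CD11b+, folds of 1.6 (1.55 to 1.66) and 1.91 (1.85 to 1.98). None of these 3 passed the 2-fold rule, although Fasn over CD11b+ did with unscaled CPM.

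The stearoyl-CoA desaturases place a double bond in saturated fatty acids. Scd1 (ENSMUSG00000037071) had 1 count in iCD8a and 7 in ILC1 against 555 in CD11b+, where it stood at 19.7 CPM. It was 61.8-fold (29.8 to 155) lower in ILC1 than in CD11b+, and the ratio for iCD8a, 465-fold lower, rests on that 1 count (83.1 to 18395). Scd2 was abundant in all 3 libraries, at 203 CPM in iCD8a, with 57.5 in ILC1 and 274 in CD11b+, 3.52-fold (3.31 to 3.75) higher in iCD8a than in ILC1 and 4.76-fold (4.48 to 5.05) lower in ILC1 than in CD11b+. In the lymphoid libraries the desaturase transcripts were thus nearly all Scd2.

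Genes of lysosomal release and storage were highest in CD11b+ except Npc1. Lipa, the acid lipase that frees cholesterol from its esters, was at 86.1 CPM in iCD8a, with 53.2 in ILC1 and 234 in CD11b+, 2.72-fold (2.59 to 2.86) lower in iCD8a and 4.4-fold (4.13 to 4.69) lower in ILC1 than in CD11b+. Npc2, the soluble carrier that hands this cholesterol on, was at 286, 189 and 478 CPM in iCD8a, ILC1 and CD11b+, and Npc1, its partner in the lysosomal membrane, at 101, 75.6 and 56.9 CPM across iCD8a, ILC1 and CD11b+. The 2 partners ran in opposite directions across iCD8a and CD11b+, with Npc2 1.67-fold (1.62 to 1.72) lower in iCD8a and Npc1 1.78-fold (1.67 to 1.9) higher.

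Soat1, which esterifies surplus cholesterol for storage, was at 49.6 CPM in iCD8a, with 28.9 in ILC1 and 248 in CD11b+, 5.0-fold (4.7 to 5.32) lower in iCD8a and 8.57-fold (7.9 to 9.31) lower in ILC1. Between iCD8a and ILC1, 0 of the 4 compared genes of this group passed the 2-fold rule, and each had a fold above 1. Of all genes, 9.49% were higher and 10.8% lower at 2-fold, so 0 of 4 does not set the group apart. Ch25h, which makes an oxysterol that restrains the SREBPs, had 0 counts in iCD8a, with 3 in ILC1 and 7 in CD11b+. It entered no comparison, and the upper exact Poisson bound for the count of 0 in iCD8a was 0.156 CPM.

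Epithelial markers were also higher in CD11b+. Of the 16, 13 were lower in iCD8a and 14 lower in ILC1 at 4-fold, against 13.4% and 13.0% of all genes. The median marker stood at 11.8% of its CD11b+ level in iCD8a and 12.7% in ILC1. The mitochondrial genome supplied 1.60% of iCD8a counts, 2.09% of ILC1 counts and 9.53% of CD11b+ counts. Among the members, Apoe, Scd1, Nr1h3 and Lpl stood lower in iCD8a, at 0.578%, 0.215%, 2.72% and 4.36%, than each of the 16 epithelial markers, whose lowest value there was 8.45%. In ILC1 the lowest marker stood at 9.08%. Scd1 (1.62%) and Nr1h3 (5.52%) lay below that marker in ILC1, and Pmvk (8.95%) just below it. Apoe (11.3%) and Lpl (13.5%) lay within the range of the markers there. The 13 markers lower at 4-fold stood between 8.45% and 25% in iCD8a, while Epcam, Cdh1 and Cdh17 stood at 85.6%, 173% and 267%. In iCD8a, Pmvk (24.3%) and Soat1 (20%) lay within the range of those 13 and Lipa (36.8%) above it. The part of epithelial RNA in the CD11b+ level of any of these members was not tested.

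**Figure D4:**
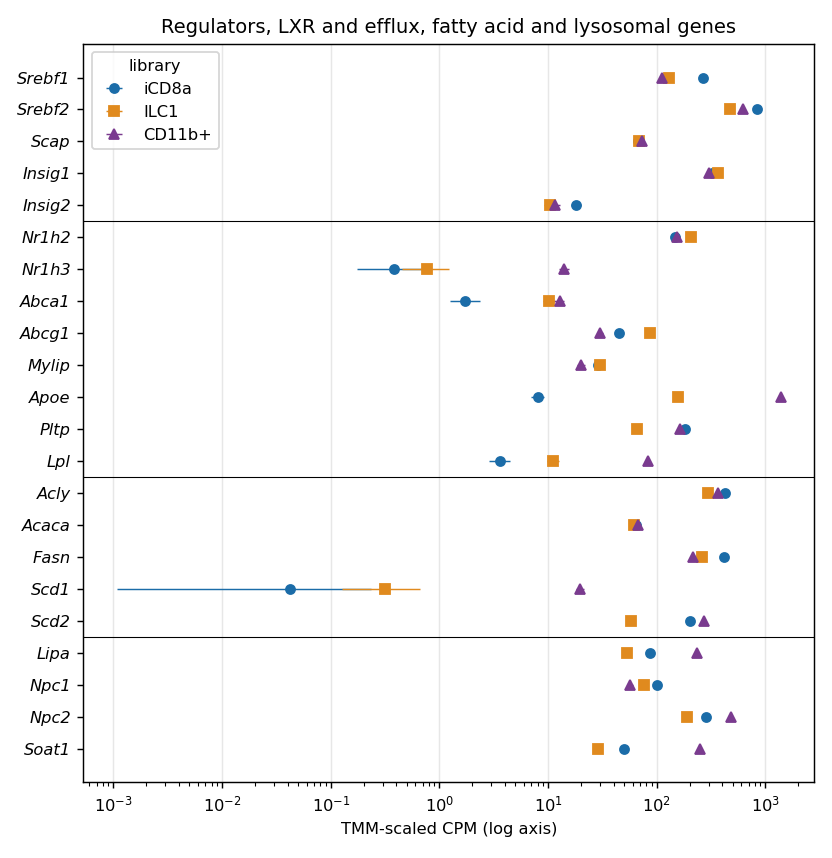
Level of the 22 other members that reached 5 CPM somewhere (TMM-scaled CPM, log axis), by role group from top to bottom: sterol sensing, LXR and lipoprotein, fatty acid synthesis, and lysosomal and storage genes; points are the single libraries and bars are 95% exact Poisson intervals. CD11b+ stands far right of both lymphoid libraries for Nr1h3, Apoe, Lpl and Scd1, while the 3 points of Insig1, Scap and Acaca lie close together.

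Within 4 pairs of related genes, the share of each gene was taken per kilobase, so that it does not depend on library scaling. Srebf1 made up 29.1% (28.5 to 29.7) of the Srebf pair in iCD8a, 26.1% (25.3 to 26.9) in ILC1 and 18.4% (17.8 to 19.0) in CD11b+. Insig1 made up 95.2% of the Insig pair in iCD8a, 97.5% in ILC1 and 96.7% in CD11b+. The share of Nr1h2 was 99.7% (99.4 to 99.8) in iCD8a, 99.5% (99.2 to 99.7) in ILC1 and 89.1% (88.0 to 90.1) in CD11b+, and that of Scd1 was 0.0233% in iCD8a, 0.614% (0.247 to 1.26) in ILC1 and 7.44% (6.85 to 8.05) in CD11b+. Srebf2, Insig1, Nr1h2 and Scd2 were the major gene of their pair in each library, and the minor genes Nr1h3 and Scd1 had their largest share in CD11b+.

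**Figure D5:**
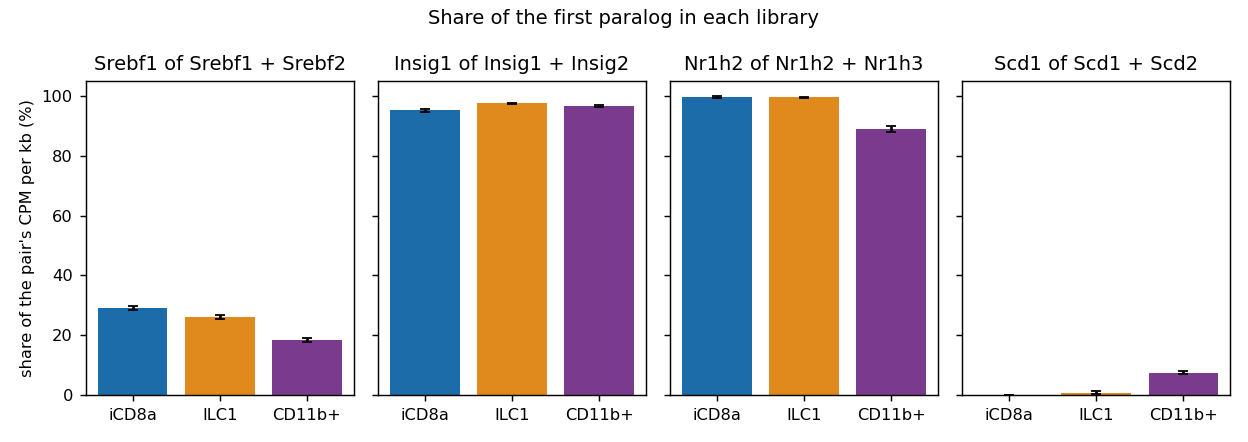
Share of the first gene in 4 pairs of related genes, as a percentage of the pair's summed CPM per kb (vertical axis, from 0), in the iCD8a, ILC1 and CD11b+ libraries; error bars are 95% exact binomial intervals. Nr1h2 falls short of its near-complete share only in CD11b+ (89.1%), where Scd1 also reaches 7.44%.

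Of 82 other genes of lipid metabolism, in 5 lists, 10 of 56 compared were higher in iCD8a than in ILC1 at 2-fold and 7 lower, beside the 9.49% and 10.8% of all genes given above. Between iCD8a and CD11b+, 7 of 70 were higher and 32 lower at 2-fold, beside 16.7% and 20.6% of all genes. Between ILC1 and CD11b+, 5 of 70 were higher and 36 lower, beside 17% and 20.9%. The list of other lipoprotein and sterol export genes, which includes enterocyte genes such as Apoa1, Apob and Mttp, had 8 of 11 lower in iCD8a than in CD11b+ at 4-fold, against 13.4% of all genes, with a median of 14.9% of the CD11b+ level over its 14 genes, beside 11.8% for the epithelial markers. The other sterol synthesis and uptake genes had 6 of 14 higher in iCD8a than in ILC1 at 2-fold and 1 lower, the fatty acid synthesis list 2 of 10 and 1, the uptake and oxidation list 1 of 17 and 2, and the lipid droplet list 1 of 9 and 2.

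Against ILC1, the genes of these lists with the largest bounds in iCD8a were Fads2, Lrp8 and Acsl1. Fads2, a desaturase of polyunsaturated fatty acids, was at 22.2 CPM in iCD8a, with 1.23 in ILC1 and 19.3 in CD11b+, 18.1-fold (12.3 to 27.7) higher in iCD8a than in ILC1. Lrp8, a receptor for ApoE-bearing particles and reelin, was at 42.0, 5.91 and 7.44 CPM in iCD8a, ILC1 and CD11b+, 7.11-fold (5.91 to 8.6) above ILC1 and 5.64-fold (4.85 to 6.58) above CD11b+. Acsl1, which activates long-chain fatty acids, was at 52.5, 8.18 and 74.0 CPM across iCD8a, ILC1 and CD11b+. In reverse, Hilpda, a lipid droplet protein induced by hypoxia, was at 43.4 CPM in iCD8a, with 194 in ILC1 and 92.7 in CD11b+, 4.46-fold (4.17 to 4.78) lower in iCD8a than in ILC1.

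Dgat1, which completes triglyceride synthesis, was the gene of these lists higher in ILC1 than in CD11b+ at 4-fold. It was at 832 CPM in iCD8a, with 2026 in ILC1 and 501 in CD11b+, 4.04-fold (3.97 to 4.12) higher in ILC1 than in CD11b+, a fold that lies close to the threshold. The genes with the largest bounds on the side of CD11b+ included receptors for lipid uptake. Lrp1, an endocytic receptor, was at 2.58 CPM in iCD8a, with 10.8 in ILC1 and 400.1 in CD11b+, and Cd36, the fatty acid translocase, at 1.4, 7.04 and 85.8 CPM in iCD8a, ILC1 and CD11b+. Scarb1, a receptor for high-density lipoprotein, was at 9.44, 2.27 and 157 CPM across iCD8a, ILC1 and CD11b+, and Cyp27a1, a sterol hydroxylase, at 5.37, 0.636 and 115 CPM in iCD8a, ILC1 and CD11b+. G0s2, an inhibitor of triglyceride breakdown, was at 0.55, 1.05 and 40.7 CPM across iCD8a, ILC1 and CD11b+. All 5 were chosen for a level below CD11b+ in iCD8a or ILC1, so being highest in CD11b+ largely follows from that choice.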

How the data were processed

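The authors deposited raw counts for each Ensembl gene, made with TopHat alignment and HTSeq counting, per the labels' design text. CASAVA 1.9 and TopHat2 are named in the submitters' processing notes. The sources used here do not give build, annotation, strand setting or counting mode, so overlapping genes are uncertain. The 5 rows that name no gene were left out of library sizes. They held 26.9%, 34.5% and 30.5% of everything tallied as alignments that were not unique, 9.31%, 11.0% and 8.56% as reads in no gene, and 1.08%, 0.889% and 0.922% as ambiguous in iCD8a, ILC1 and CD11b+. As no source mentions molecular identifiers, reads are not taken as independent molecules, and intervals and the 3-count floor describe counting error only.

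Symbols, exons and lengths came from GENCODE M21 by Ensembl ID (35449 of 37224 matched). TMM factors, from edgeR 4.0.16 in R 4.3.3, were 1.09, 0.992 and 0.925. Folds have 95% exact conditional binomial intervals, and log2 ratios use a prior count of 0.5 (scipy 1.17.1, numpy 2.4.6, pandas 2.3.3, Python 3.11.15, matplotlib 3.10.9). With 1 library per population no quasi-likelihood test could be fitted. The steps were tested on simulated counts. The members, lists and rules were chosen with earlier results of these data known. Other pathway genes were named when among the 3 with the largest near bound per pair and direction at 4-fold and 20 CPM. Alternatives were unscaled CPM, DESeq2 1.42.0 and upper-quartile factors, other minimums and prior counts, thinning, and library sizes without the 50 most abundant or the 37 mitochondrial genes.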

Additional observations from a re-analysis of the deposited data

Results flagged for a closer look

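Alignments that were not unique entered no comparison. They amounted to 26.9% of everything tallied for iCD8a, 34.5% for ILC1 and 30.5% for CD11b+, and their part in the members' levels was not tested.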

How the results depend on the processing

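Of 96 recomputed counts of members apart, 94 stayed within 1.5 times the reported number. The other 2 were the members higher in iCD8a than in ILC1 at 4-fold, 0 with upper-quartile factors in place of 1, and those higher in iCD8a than in CD11b+ at 2-fold, 5 with unscaled CPM in place of 3. The number higher in iCD8a than in ILC1 at 2-fold ranged from 9 to 14. The median log2 ratios of all compared members and the summed ratios of the 17 enzymes kept their direction under the alternatives run. Of the role groups' medians, that of fatty acid synthesis for iCD8a over CD11b+ was −0.05 with TMM and 0.19 with unscaled CPM, and that of sterol sensing for ILC1 over CD11b+ was −0.09 and 0.01. With unscaled CPM the median log2 ratio was 0.83 for iCD8a over ILC1 and 0.40 for iCD8a over CD11b+. The summed ratio of the 17 synthesis enzymes for iCD8a over ILC1 was 2.07 with unscaled CPM, 1.85 with DESeq2 factors, 1.8 with upper-quartile factors and 1.84 without Hmgcs1. For iCD8a over CD11b+ it was 1.42 with unscaled CPM, 1.18 with DESeq2 factors and 1.13 without Hmgcs1. For ILC1 over CD11b+ it was 0.686 with unscaled CPM, 0.677 with upper-quartile factors and 0.613 without Hmgcs1. Taken from counts not divided by length, the share of Srebf1 was 24.4% in iCD8a, 21.7% in ILC1 and 15% in CD11b+, that of Insig1 94.7% in iCD8a and 96.4% in CD11b+, that of Nr1h2 91.6% in CD11b+ and that of Scd1 6.71% in CD11b+. These shifts follow from the factors, genes and lengths used. Depth limits Nr1h3, Scd1 and Ch25h in iCD8a and ILC1, at 17 counts or fewer. No paired analysis was possible because each population has 1 library.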

Other observations

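The related enzymes of sterol esterification were used in different proportions. Per kilobase of merged exon, Soat2 stood at 52.2 CPM per kb in iCD8a, 32.1 in ILC1 cells and 12.6 in CD11b+, and Soat1 at 5.07 in iCD8a, 2.96 in ILC1 and 25.3 in CD11b+. Soat2 was thus the more abundant of the pair in iCD8a and ILC1, and Soat1 in CD11b+. Soat2, best known from intestine and liver, was 4.13-fold (3.81 to 4.48) higher in iCD8a than in CD11b+. Of the 16 epithelial markers, 13 were lower in iCD8a than in CD11b+ at 4-fold, against 13.4% of all genes. Cdh17 was 2.67-fold and Cdh1 1.73-fold higher in iCD8a. The part of epithelial RNA in the level of Soat2 was not tested.

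The enzymes of triglyceride completion showed a like contrast. Dgat1 stood at 272, 663 and 164 CPM per kb in iCD8a, ILC1 and CD11b+, and Dgat2 at 0.329 in iCD8a, 0.649 in ILC1 and 13.5 in CD11b+. Fads1, the desaturase that acts after Fads2, was at 55.3, 31.4 and 45.7 CPM in iCD8a, ILC1 and CD11b+, without the depletion in ILC1 that Fads2 had at 1.23 CPM. These pairs were chosen after their values were seen, and the difference has no replicate check.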
